A study of Homo sapiens with 26 samples.

Results

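Collagens, laminins, fibronectin and their companions form the extracellular matrix, and integrins and tensins connect cells to it. The genes described here are the rows of the input RNA count files whose symbol is that of a collagen chain, a laminin chain, an integrin or integrin-named gene, a tensin, or one of Fn1, Sparc, Hspg2, Nid1 and Nid2. The pattern found 95 of 55353 gene rows. Of these, 60 encode matrix proteins and 30 encode receptors or adhesion proteins, namely 26 integrin subunits and 4 tensins. The other 5 rows (Itgb1bp1, Itgb1bp2, Itgb3bp, Itgb2l and Itgbl1) carry an integrin-like name without being a subunit of the usual receptors, and were kept out of both groups.

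Collagens are triple helices of 3 alpha chains: fibrillar collagens build tensile fibres, and type IV collagen builds the sheet of the basement membrane. Laminins are cross-shaped trimers of an alpha, a beta and a gamma chain that organise that sheet. Integrins pair an alpha with a beta subunit, bind these proteins outside the cell, and pass force to actin through adaptors such as tensins, while melanoma cells use them to attach and to invade.

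The samples were SK-MEL-28, a human melanoma cell line. Cells were treated with salubrinal for 72 h (13 samples) or were untreated controls (13 samples). Salubrinal is known to keep the translation factor eIF2α phosphorylated, which is a trigger of the integrated stress response. Of the 26 samples, 2 were input RNA, 1 per treatment, and 24 came from sucrose gradients run after cycloheximide, with each of the 40S, 60S, 80S and polysome fractions taken in 3 replicates for both treatments. The comparison is of the RNA that cells and their ribosomes hold with and without salubrinal. Every title names SK-MEL-28, whereas the cell-line field counts upward from sample to sample, and the titles were followed.

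The salubrinal input file summed to 145107865 counts and the control input to 203322430, of which 10245548 and 12068784 fell on gene rows. The row names are mouse-style symbols although the line is human and the notes name a human build. A row with few counts therefore need not mean low expression, and levels are not compared between genes here. Of the pigment-cell markers, Pmel held 13535 counts with salubrinal and 16793 in the control, whereas Mlana was at 0 in both and Tyrp1 held 0 and 5 counts. The 8 pigment markers summed to 1396 CPM with salubrinal and 2771 CPM in the control, and the part of this difference in the values below was not tested. Pmel, Dct, Sox10 and Mitf were lower with salubrinal. Tyr (107 CPM with salubrinal and 111 CPM in the control) and S100b (69.8 and 62.7 CPM) differed little. Of the 6 fibroblast markers Pdgfrb, Thy1 and Fap were at 0 in both samples, and the list summed to 3.52 CPM with salubrinal and 5.17 CPM in the control. Lum held most of that sum, at 3.03 CPM with salubrinal and 4.82 CPM in the control. The endothelial and immune lists summed to 1.13 and 4.65 CPM with salubrinal and 1.49 and 5.74 CPM in the control, with Cdh5 and Cd3e at 0 in both. Cd68 held most of the immune sum, at 4.23 CPM with salubrinal and 5.63 CPM in the control. The epithelial list summed to 25.1 CPM with salubrinal and 24.2 CPM in the control, most of it Krt18 (22.3 and 20.3 CPM).

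Of the 95 rows, 23 had no count in either input sample, 35 had 1 to 49 counts over both, and 37 had at least 50. Ratios are given for these 37, as log2 of salubrinal over control on counts scaled by library size with edgeR's trimmed means (TMM; the scaled level is given as CPM), each with an exact 95% interval that covers counting error only. With 1 input sample per treatment there is no replicate check and no test, so a difference is a difference between these 2 libraries; fewer cells carrying an RNA and less of it per cell cannot be told apart in them. Over all 10614 rows with at least 50 counts the median ratio was 0.02, and 90% lay between -0.90 and 0.83.

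**Figure D1:**
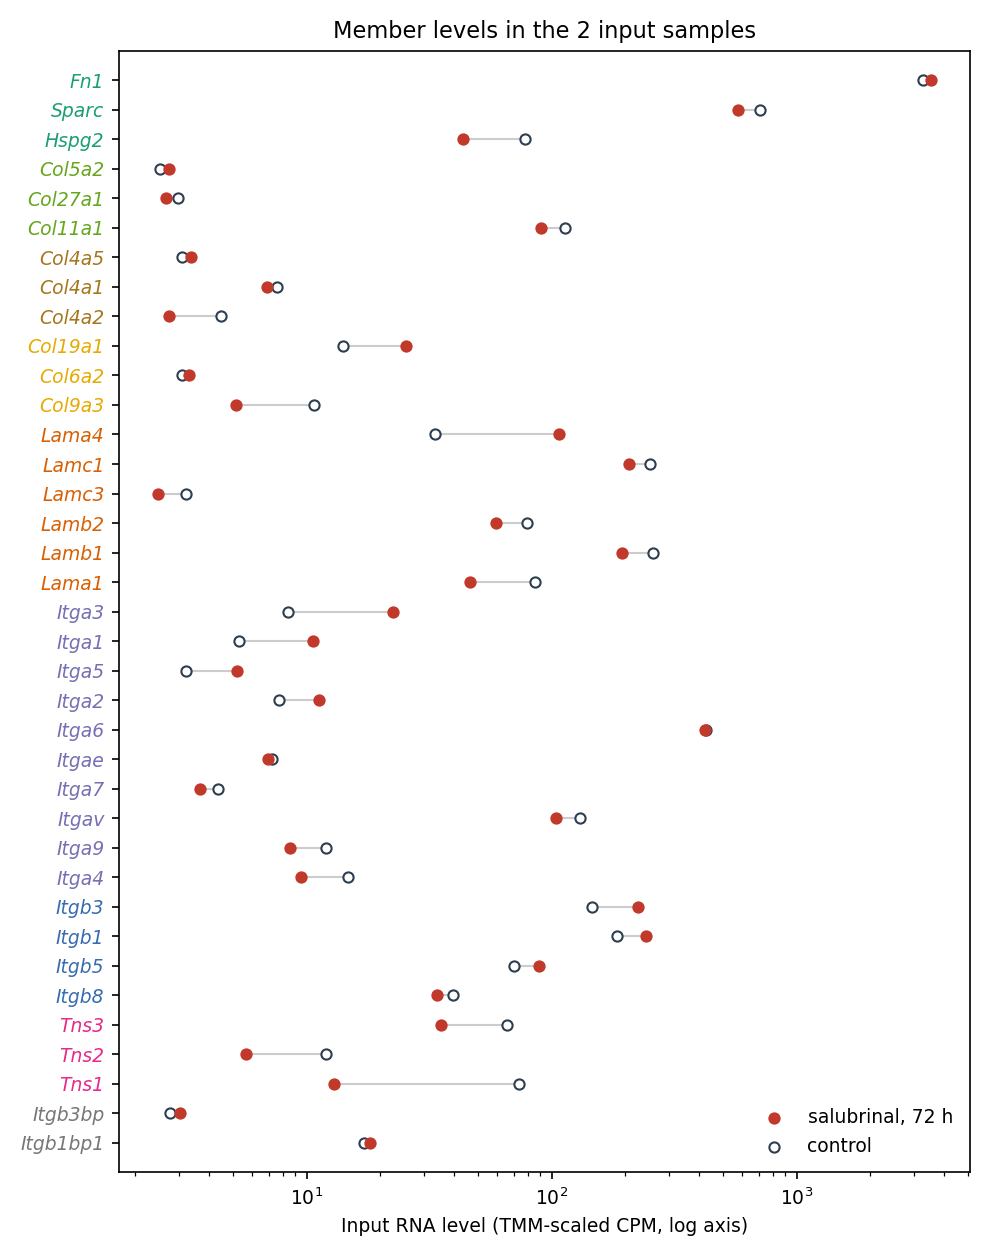
Input RNA level of the 37 members with at least 50 counts, in TMM-scaled CPM on a log axis, with salubrinal (filled) and in the control (open), 1 sample each, grouped by role. Fn1 lies near 3539 CPM with salubrinal and 3289 CPM in the control; the widest gaps are those of Tns1, lower with salubrinal, and Lama4, higher; levels of different rows are not to be compared.

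Most measured members lay within 2-fold of the control. A laminin chain (Lama4) and an integrin alpha subunit (Itga3) stood 2-fold or more above the control, and the tensins Tns1 and Tns2 and the collagen Col9a3 stood 2-fold or more below it. That is 2 of 37 members higher (5.41%) and 3 lower (8.11%), while the same 2-fold limits were passed upward by 2.75% and downward by 3.80% of all measured rows. Among the 23 members with at least 200 counts, 2 were higher and 1 lower, where 2.06% and 2.48% of all such rows were.

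The matrix group had a median log2 ratio of -0.30 over its 18 measured members, with 6 above 0 and 12 below. The receptor and adhesion group had a median of -0.05 over 17 members, with 7 above 0 and 10 below. Of all 10614 measured rows, 5524 lay above 0 and 5090 below. Within the receptor and adhesion group, integrins and tensins lay apart: the 14 measured integrin subunits had a median of 0.16 and ran from -0.62 to 1.41, while the 3 measured tensins ran from -2.49 to -0.89 and did not overlap them. All members together had a median of -0.15. Members are genes of the same 2 libraries and not replicates, so these medians are descriptions.

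**Figure D2:**
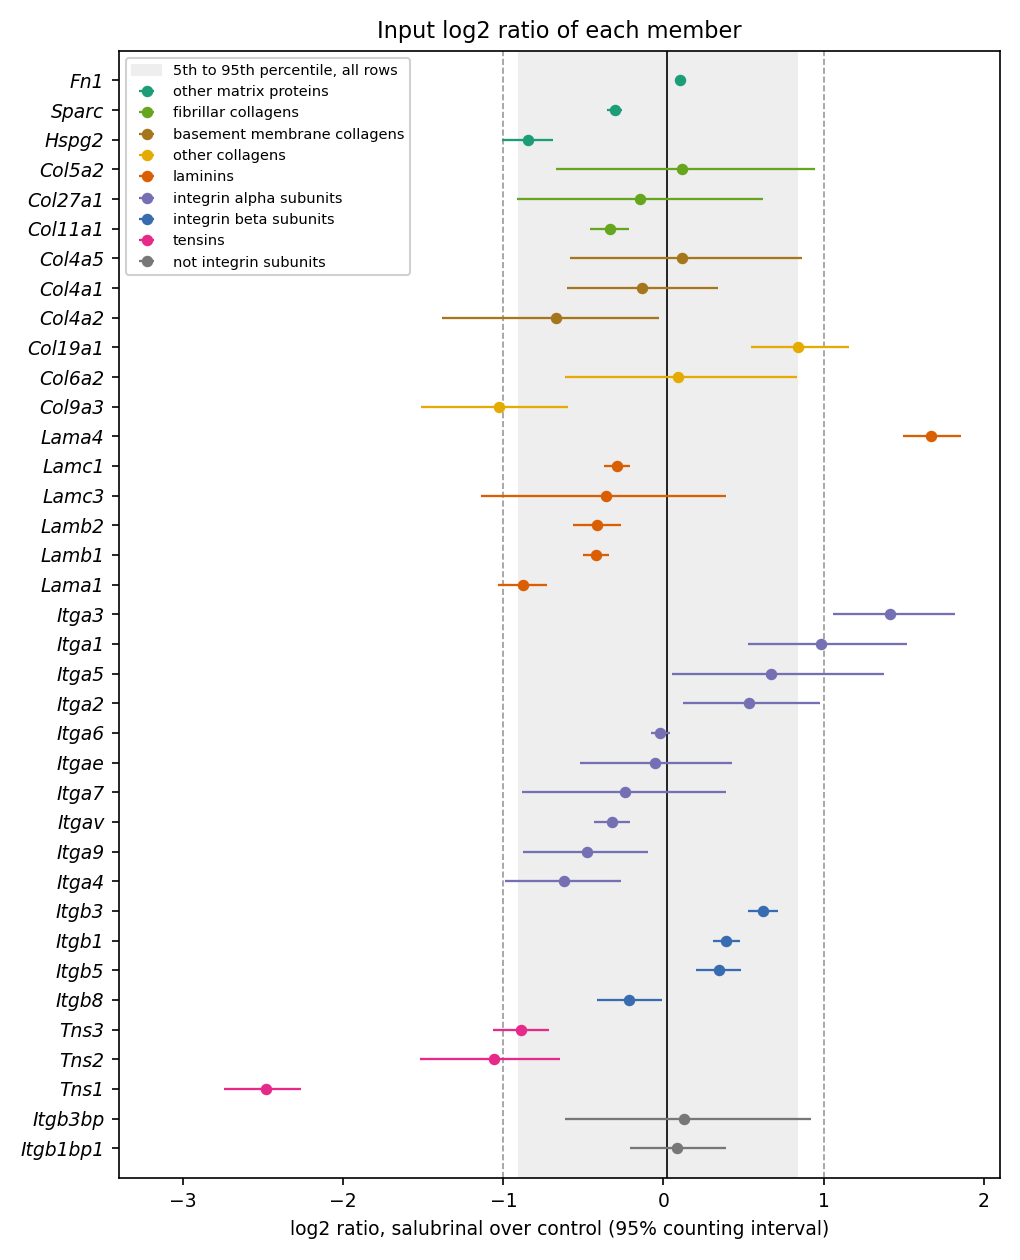
Input log2 ratio, salubrinal over control, of the 37 members, coloured by role, with exact 95% counting intervals. The solid line is the median of all rows (0.02), the grey band holds the middle 90% of all rows, and the dashed lines mark 2-fold; Lama4 and Itga3 lie beyond it on the right and Tns1, Tns2 and Col9a3 on the left.

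Of Fn1, Sparc and Hspg2, Fn1 and Sparc had the most counts and lay nearest to the control. Fn1 encodes fibronectin, which bridges collagen and integrins. It held 50241 counts with salubrinal and 28645 in the control, or 3539 and 3289 CPM, a log2 ratio of 0.11 (0.08 to 0.13). Fn1 made up 57.1% of all counts of the 95 rows with salubrinal and 53.0% in the control, so any sum over the rows follows it. Sparc encodes a secreted collagen-binding protein that is abundant in melanoma. It stood at 575 CPM with salubrinal and 711 CPM in the control, a ratio of -0.31 (-0.35 to -0.26). Both intervals exclude 0, and both ratios lie inside the range that holds 90% of all rows. Hspg2, which encodes the basement membrane proteoglycan perlecan, was the lowest of these at 43.5 CPM with salubrinal and 78.2 CPM in the control (-0.84, -1.01 to -0.69). Nid1, which encodes a linker of laminin and collagen IV networks, had 12 and 6 counts, and Nid2 had none.

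Of the 44 collagen rows, 9 had at least 50 counts. Among the fibrillar chains Col11a1, a minor component that seeds thin fibrils, held 1280 counts with salubrinal and 992 in the control, or 90.2 and 114 CPM, a ratio of -0.34 (-0.46 to -0.22). Col5a2 (0.11, -0.67 to 0.95) and Col27a1 (-0.15, -0.91 to 0.62) had 61 and 64 counts in all, and their intervals include 0. Col1a1, which encodes the main chain of the most common fibrillar collagen, was at 0 in both samples, and its partner Col1a2 had 0 counts with salubrinal and 1 in the control. A row at 0 could still hold up to 3 counts' worth of RNA, which is 0.211 CPM in the salubrinal and 0.344 CPM in the control library, counting error alone considered.

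Among the basement membrane chains Col4a1 had 98 counts with salubrinal and 66 in the control (ratio -0.13, -0.60 to 0.34), and Col4a2 had 39 and 39 (-0.67, -1.38 to -0.03). Col4a5, whose chain takes part in a different collagen IV trimer, stood at 0.12 (-0.58 to 0.86). The intervals of Col4a1 and Col4a2 overlap, so no difference between their ratios was detectable at these counts. The human genes of this pair stand head to head and are transcribed in opposite directions from the short stretch between their start sites, which is shown because both rows depend on it. It spans 126 bases in the RefSeq annotation of GRCh38.p14, at chr13:110307158-110307283, written on the plus strand with COL4A1 starting to its left and COL4A2 to its right, and the capitals mark a CCAAT box, the only one found there on either strand.
COL4A1 to COL4A2: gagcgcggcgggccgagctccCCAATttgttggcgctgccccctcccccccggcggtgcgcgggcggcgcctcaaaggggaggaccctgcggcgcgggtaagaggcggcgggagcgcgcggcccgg
G and C made up 80.2% of the stretch.

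Of the other collagens, Col19a1 was the highest. It encodes a collagen that associates with basement membrane zones, and held 361 counts with salubrinal and 123 in the control, or 25.4 and 14.1 CPM, a ratio of 0.84 (0.55 to 1.16). Col9a3, a chain of the collagen IX that coats cartilage fibrils, had 73 and 93 counts, or 5.14 CPM with salubrinal and 10.7 CPM in the control (-1.03, -1.52 to -0.60). Its interval includes the 2-fold line. Col6a2, of the beaded-filament collagen VI, stood at 0.09 (-0.62 to 0.83). Some collagens under 50 counts are named here after their values were seen: Col12a1 had 14 counts with salubrinal and 34 in the control (-1.81, -3.0 to -1.05), Col22a1 had 29 and 8 (1.02, -0.01 to 2.49) and Col6a3 had 19 and 4 (1.26, -0.05 to 3.56). Col6a5 had 6 and 12 (-1.38, -3.4 to -0.18), and Col25a1 had 3 and 8 (-1.50, -4.67 to -0.06). The intervals of Col12a1, Col6a5 and Col25a1 lie below 0, and those of Col22a1 and Col6a3 include it.

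Laminin chains divided sharply between 1 alpha chain and the rest. Lama4 encodes the laminin alpha 4 chain, known from vessel walls and from tumour cells that migrate. It held 1520 counts with salubrinal and 292 in the control, or 107 and 33.5 CPM, a log2 ratio of 1.67 (1.49 to 1.86), which is a 3.18-fold difference and the highest of the 37. Lama1, the alpha chain of embryonic basement membranes, was lower, with 662 and 747 counts, or 46.6 CPM with salubrinal and 85.8 CPM in the control (-0.88, -1.03 to -0.73). The beta and gamma chains that alpha chains assemble with were slightly lower: Lamb1 stood at -0.42 (-0.50 to -0.34), Lamb2 at -0.41 (-0.56 to -0.27) and Lamc1 at -0.29 (-0.37 to -0.21). Lamc3 stood at -0.36 with an interval that includes 0. Of the laminin rows under 50 counts, Lama5 had 9 counts with salubrinal and 15 in the control and Lamb3 had 20 and 19, and Lama2 and Lama3 had 4 or fewer in each sample.

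As the member with the highest ratio, LAMA4 is shown by the 250 bases before its start site, at chr6:112254568-112254817 of GRCh38.p14, read 5′ to 3′ on the minus strand from which the gene is transcribed. None of the 4 motifs searched was found in it, so it has no capitals.
LAMA4: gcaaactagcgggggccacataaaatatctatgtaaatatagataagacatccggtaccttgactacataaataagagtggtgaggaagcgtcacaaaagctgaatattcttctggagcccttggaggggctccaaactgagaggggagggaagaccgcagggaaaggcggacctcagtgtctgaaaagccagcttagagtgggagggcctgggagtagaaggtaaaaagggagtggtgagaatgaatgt
The motifs were TGATGNAAN, the composite element that ATF4 and CHOP bind in stress response genes, CACGTG, the E-box that MITF binds among others, the CCAAT box and TATAAA, each on both strands; each motif was counted by itself, also where matches overlap. RefSeq windows of 250 bases were at hand for 29 of the 37 measured members, 43 windows in all since some genes have several start sites. The stress element was in 1 of the 43 (2.33%, at ITGB5) and in 3.13% of all 35116 windows. The E-box was in 1 (at ITGA6, 6.35% of all windows), CCAAT in 10 (23.3%, against 32.0% of all) and TATAAA in 3 (6.98%, against 10.7%). A missing match says only that these letters are not in the window.

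Integrin alpha subunits are given by the ligand they are known to bind, a grouping made after the values were seen. Of the collagen receptor subunits Itga1 and Itga2 had at least 50 counts. Itga1 had 151 counts with salubrinal and 46 in the control, or 10.6 and 5.28 CPM, a ratio of 0.99 (0.53 to 1.52), just inside the 2-fold line. Itga2 stood at 0.53 (0.12 to 0.98), from 159 and 67 counts. Itga10, below the 50-count minimum, had 34 counts with salubrinal and 1 in the control, a ratio of 3.15 with a counting interval of 1.81 to 9.73. Itga11 had none in either sample. Itga10 is named after its value was seen, and its ratio depends on the prior count.

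Among the laminin receptor subunits Itga3 was the highest of all measured integrins. It held 321 counts with salubrinal and 73 in the control, or 22.6 and 8.38 CPM, a ratio of 1.41 (1.06 to 1.82). Itga6, the alpha subunit row with the most counts, held 5984 and 3724 counts, or 422 CPM with salubrinal and 428 CPM in the control. Its ratio was -0.02 (-0.08 to 0.04). Counting error alone allows only a small difference between these 2 libraries, and spread between cultures and error of scaling are not covered. Itga7, known from muscle, stood at -0.24 (-0.88 to 0.39). Counting error thus separates Itga3 from Itga6 and Itga7, with no overlap between its interval and theirs.

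Subunits that bind fibronectin or vitronectin at their RGD site were mixed. Itga5, of the main fibronectin receptor, had 74 counts with salubrinal and 28 in the control, a ratio of 0.67 (0.05 to 1.38). Itgav, the vitronectin receptor subunit that melanoma cells carry widely, held 1479 and 1136 counts, or 104 CPM with salubrinal and 130 CPM in the control (-0.32, -0.44 to -0.21). Itga4, which binds fibronectin and the vessel protein VCAM, was the lowest integrin subunit at -0.62 (-0.99 to -0.27), from 135 and 128 counts. Its relative Itga9, a tenascin receptor subunit, stood at -0.48 (-0.88 to -0.09). Itgae, a subunit known from lymphocytes of epithelia, stood at -0.05 (-0.52 to 0.43). The leukocyte subunits Itgal and Itgad, the platelet subunit Itga2b, and Itga8 were at 0 in both samples, Itgam had 1 and 0 counts and Itgax 2 and 0.

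Of the 4 measured beta subunits, 3 were higher with salubrinal. Itgb3, the partner of alpha v that marks invasive growth of melanoma, held 3197 counts with salubrinal and 1277 in the control, or 225 and 147 CPM, a ratio of 0.62 (0.53 to 0.71). Itgb1, the shared partner of the collagen, laminin and fibronectin receptors, stood at 242 CPM with salubrinal and 184 CPM in the control (0.39, 0.31 to 0.48). Itgb5, another alpha v partner, stood at 0.34 (0.20 to 0.49). Itgb8, which activates latent TGF-beta with alpha v, was lower at -0.21 (-0.42 to -0.01). All 4 ratios lie inside the range of 90% of all rows. Itgb2, Itgb4 and Itgb7 were at 0 in both samples and Itgb6 had 1 count in each.

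Tensins, which tie integrin tails to actin, were lower with salubrinal in all 3 measured rows. Tns1 held 184 counts with salubrinal and 639 in the control, or 13.0 and 73.4 CPM, a ratio of -2.49 (-2.75 to -2.26). That is 5.60-fold lower with salubrinal and the largest difference among the 37 members in either direction. Tns2 had 80 and 104 counts, or 5.64 CPM with salubrinal and 11.9 CPM in the control (-1.06, -1.52 to -0.65). Tns3 had 504 and 573 counts, or 35.5 CPM with salubrinal and 65.8 CPM in the control (-0.89, -1.07 to -0.71). Tns4 had none. The raw counts of Tns2 and Tns3 differ less than their CPM: the TMM factors were 1.39 for the salubrinal and 0.722 for the control library, in which the row CT010467.1 alone took 12.8% and 56.7% of gene-row counts.

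The remaining rows with integrin-like names showed no difference beyond counting error. Itgb1bp1, which encodes an adaptor on the beta 1 tail, stood at 0.09 (-0.21 to 0.39). Itgb3bp, which encodes a centromere protein that also binds the beta 3 tail, stood at 0.13 (-0.62 to 0.92). Itgb1bp2 had 6 and 4 counts, Itgbl1 0 and 2, and Itgb2l none.

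Genes that make, cut and read the matrix were set beside the members from lists of known function, each with a median near that of all rows. Of all measured rows 2.75% were at least 2-fold higher and 3.80% lower. Of 28 rows for collagen synthesis and crosslinking 18 were measured, with a median of 0.03, 1 at least 2-fold higher (5.56%) and 0 lower. Loxl3, a lysyl oxidase that crosslinks collagen, led at 1.29 (1.18 to 1.41), followed by the prolyl hydroxylase subunit P4hb at 0.55. The procollagen protease Adamts3 was lowest at -0.87 (-1.80 to -0.08), and the lysyl hydroxylase Plod1 stood at -0.49. Other matrix proteins had a median of -0.05 over 12 measured of 30 rows, 1 higher (8.33%) and 0 lower. In that list the glycoproteins Spp1 (osteopontin) and Thbs1 (thrombospondin) stood highest at 1.41 and 0.97, and the proteoglycan Agrn and the elastic-fibre protein Fbln5 lowest at -0.76 and -0.73.

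Proteases of the matrix and their inhibitors had a median of 0.03 over 16 measured of 28 rows, 2 higher (12.5%) and 1 lower (6.25%). Of all measured rows 2.75% were higher and 3.80% lower. The protease inhibitors Serpine2 (1.92, 1.84 to 2.01) and Timp1 (1.68, 1.40 to 1.99) were highest, and the membrane protease Mmp17 (-1.26, -1.54 to -1.0) and Timp2 (-0.49) lowest. Matrix receptors other than integrins had a median of 0.03 over 15 measured of 17 rows, 3 higher (20%) and 1 lower (6.67%). The collagen receptor kinase Ddr2 stood highest at 1.87 (1.20 to 2.83), from 102 counts with salubrinal and 16 in the control. The tetraspanin Cd82 stood at 1.26, and the proteoglycans Gpc1 and Sdc3 lowest at -1.13 and -0.82. Focal adhesion adaptors other than tensins had a median of -0.12 over 29 measured of 33 rows, 0 higher and 1 lower (3.45%). The 1 lower was the scaffold Bcar1 at -1.13 (-1.43 to -0.86). Parvb, at -0.48, was next, and Lpp and Csrp1 were highest at 0.58 and 0.54. All 3 measured tensins thus lay below each of these adaptors other than Bcar1.

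**Figure D3:**
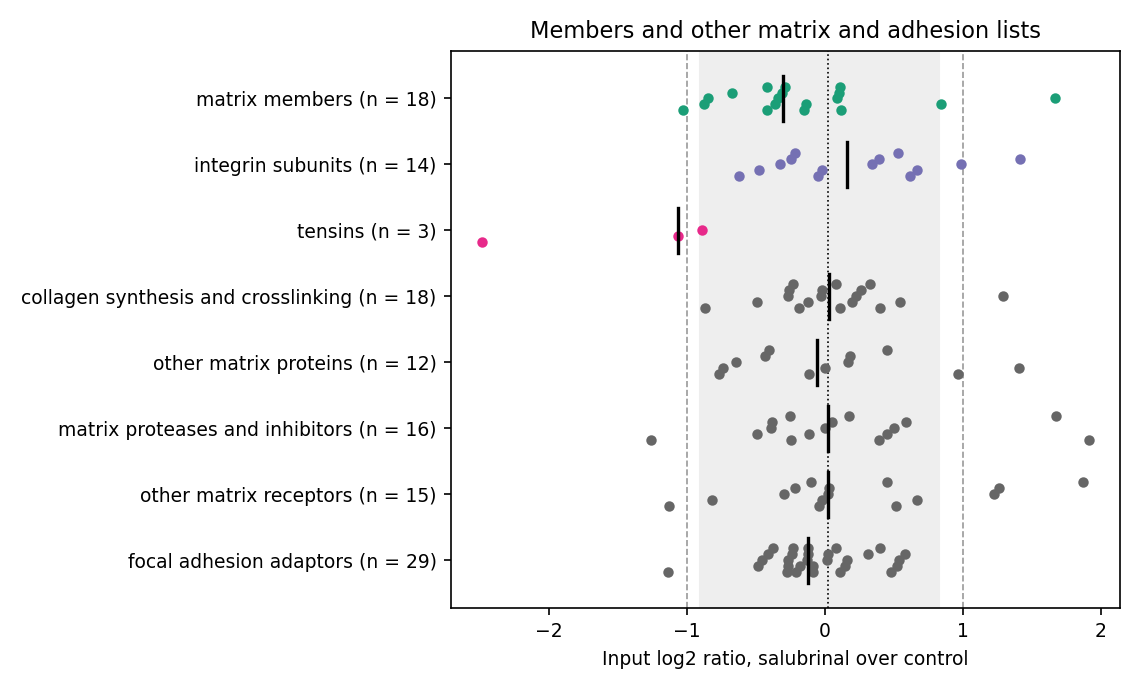
Input log2 ratio, salubrinal over control, of each gene with at least 50 counts, for matrix members, integrin subunits and tensins and for 5 other lists of matrix and adhesion genes; bars are medians, the dotted line is the median of all rows, the grey band holds the middle 90% of all rows and dashed lines mark 2-fold. The tensins lie left of nearly all focal adhesion adaptors, whose median is -0.12.

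The gradient fractions hold the same genes under human symbols but gave few counts for them. Of the 95 members 93 were named there, 1 through an older symbol. Over the 24 samples 59 of the 93 had no count, 26 had under 10, and all together had 629 counts, 163 in salubrinal and 466 in control samples. That was 0.187% of counts outside ribosomal RNA with salubrinal and 0.230% in the control. The rows that are deep in the input were nearly empty, with 9 counts on FN1, 9 on SPARC, 12 on ITGB1 and 10 on ITGA6, and the 7 rows named as antisense to a member had 0. The counts sat on LAMA5 (238), ITGB1BP1 (155), ITGB3BP (78) and ITGAE (33), which together held 504. In the RefSeq table all 4 overlap another gene. LAMA5 overlaps LAMA5-AS1 and LOC124904946, and ITGB1BP1 overlaps ASAP2. ITGB3BP overlaps EFCAB7 and LOC102724319, and ITGAE overlaps HASPIN and P2RX5. Overlap is not particular to these 4. FN1 (ATIC and FN1-DT), SPARC (CLMAT3) and ITGA6 (ITGA6-AS1 and PDK1-AS1) overlap other genes too, whereas ITGB1 overlaps none. The share of all 93 member rows that overlap another gene was not counted. Reads from overlapping genes cannot be told apart where the strand setting is not stated.

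Gradient samples held 864 to 23679 counts outside ribosomal RNA rows. There the 60S, 80S and polysome files of a replicate agreed within sampling noise (chi-square per degree of freedom 1.01 to 1.14 in the 6 sets, p from 0.0887 to 0.426), while replicates of 1 fraction did not (1.63 to 8.16). The 40S files of control replicates 1 and 2 differed from the 60S files of the same title (1.90 and 2.09) but not from the 60S files with the number in their file names (0.981 and 0.807). The 3 files were therefore summed and counted as 1 library per replicate, with the 40S files left out. Nothing says that replicates were separate cultures, so the p-values below measure the spread between these libraries, which may be technical.

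In the summed libraries no member passed a Benjamini-Hochberg threshold of 0.05 in edgeR's quasi-likelihood test, out of 3 that had enough counts to be tested, where 5.78% of 727 rows passed in either direction. LAMA5 and ITGB1BP1, the latter in neither group, had an unadjusted p under 0.05 in that test. The share of all 727 rows that did was not counted. LAMA5 had 1, 0 and 26 counts in the salubrinal libraries and 55, 12 and 77 in the control libraries. These counts overlap between the groups, in libraries of 7603, 2870 and 54945 counts outside ribosomal RNA with salubrinal and 64910, 16831 and 70331 in the control. Scaled to the library they did not overlap, at 2.04, 0 and 6.79 CPM with salubrinal and 10.7, 10.0 and 13.9 CPM in the control. How many of the 727 tested rows lay apart in this way was not counted. Its mean level was 2.94 ± 3.48 CPM with salubrinal and 11.5 ± 2.05 CPM in the control (SD, n = 3 each), with a fold change on the log2 scale of -1.05 ± 0.42 (SE) and an edgeR adjusted p of 0.121. Without salubrinal replicate 3, which leaves 1 count in that group, the value was -3.06, with an edgeR adjusted p of 0.178, and over all alternatives the adjusted p ranged from 0.0559 to 0.668.

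ITGB1BP1 had 6, 1 and 44 counts with salubrinal and 29, 7 and 27 in the control, and the counts of the groups overlap. Scaled, the groups overlap too, at 12.3, 5.15 and 11.5 CPM with salubrinal and 5.65, 5.84 and 4.86 CPM in the control. It averaged 9.63 ± 3.90 CPM with salubrinal and 5.45 ± 0.519 CPM in the control (SD, n = 3 each), with a fold change on the log2 scale of 1.07 ± 0.38 (SE) and an edgeR adjusted p of 0.07. Without salubrinal replicate 2 its edgeR adjusted p was 0.0218, and it ranged up to 0.632 over the other alternatives. ITGB3BP had 1, 0 and 10 counts with salubrinal and 15, 4 and 29 in the control (-0.72 ± 0.51, edgeR adjusted p = 0.486), and its value ran from -1.50 without salubrinal replicate 3 to -0.30 without control replicate 3. TMM factors ran from 0.0943 to 5.13 between these libraries, so scaled values rest heavily on the scaling.

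Fitted one fraction at a time, each fraction had 1 testable member and 0 passed in edgeR's test. These were ITGB1BP1 in polysomes (0.04, adjusted p = 0.974) and LAMA5 in 80S (-0.84, adjusted p = 0.372), 60S (-0.93, adjusted p = 0.302) and 40S (-1.19, adjusted p = 0.104). Only the last had an unadjusted edgeR p under 0.05 (0.0161). DESeq2 called 0 members in each fraction and in the sum. Over all rows it called 0 of 6044 in polysomes, 9 of 5973 in 80S and 0 of 6027 in 60S. In 40S it called 0 of 6021 rows and in the sum 26 of 9255. In edgeR's test the shares of all tested rows that passed were 3.73% in polysomes, 12.7% in 80S, 9.83% in 60S and 8.0% in 40S. These shares rest on single libraries: leaving out 1 at a time, the rows called ran from 0 to 39 in polysomes, 0 to 46 in 80S, 0 to 39 in 60S, 0 to 47 in 40S and 0 to 89 in the sum. LAMA5 was the only matrix row in these edgeR fits of all replicates. No collagen, integrin subunit or tensin row had enough counts to enter them. A difference in the matrix and integrin mRNAs of the gradient fractions could thus not be judged. The LAMA5 row was tested, but its reads cannot be told apart from those of the genes it overlaps.

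**Figure D4:**
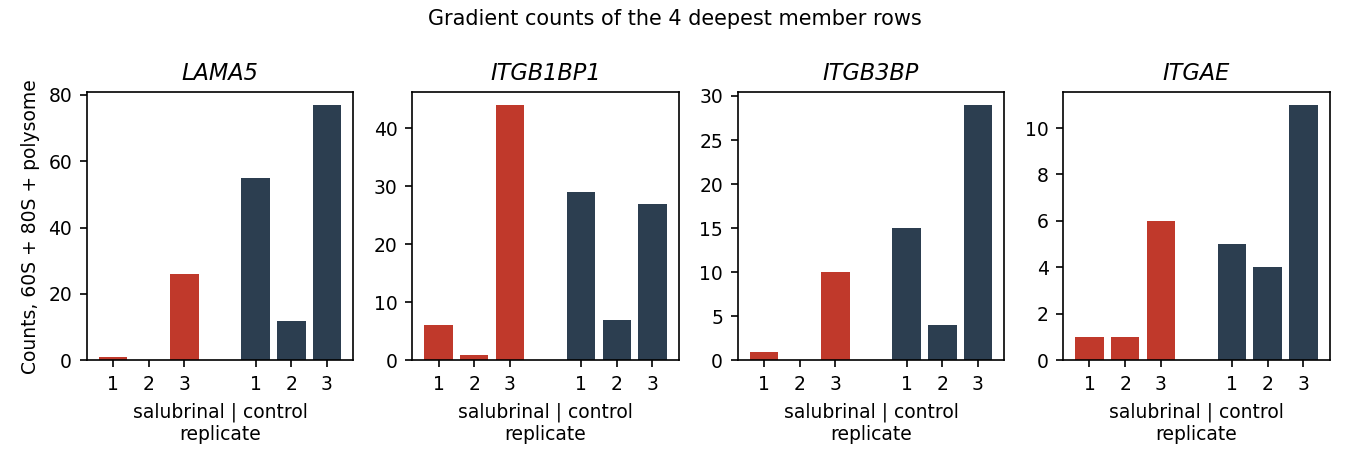
Counts of the 4 deepest member rows in the gradient, summed over the 60S, 80S and polysome files of each replicate, with salubrinal (left) and in the control (right); the vertical axis differs between panels. LAMA5 ranges from 0 to 26 counts with salubrinal and from 12 to 77 in the control, and most salubrinal counts come from replicate 3 in every panel.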

How the data were processed

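A stranded total RNA kit was used, per the labels' protocols. All files used hold read counts per gene row as deposited, not normalized. Tools in the submitters' processing notes include HTSeq 0.5.3p3, STAR, DESeq, FastQC 0.11.5 and SAMtools 0.1.19.24, and the build is hg19. Not given in the sources used here: the strand setting and the reference of the mouse-style input rows. Rows naming no gene entered neither library sizes nor tests, and gene rows held 7.06% of counts in the salubrinal input, 5.94% in the control input, and 4.72 to 5.79% in gradient files.

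Input ratios use TMM factors and add a prior count of 2 (edgeR 4.0.16, R 4.3.3), for rows with at least 50 counts. Gradient samples were tested with edgeR (filterByExpr, TMM, robust quasi-likelihood, Benjamini-Hochberg over all rows); SEs are the log2 fold change over the normal deviate of its p. The edgeR fit of the summed libraries and the input ratio with its interval were run on simulated counts, with the outcome not given here. The simulation drew both input libraries from the same profile, so it lacked their unequal share of CT010467.1. It also gave all gradient libraries the same dispersion. DESeq2 1.42.0 was an alternative and was not run on simulated counts. Named genes are all measured members, the 2 highest and 2 lowest of each list, and the deepest gradient rows. The members, lists and tests were chosen with earlier results of these data known. Lum stands both on the list of other matrix proteins and among the fibroblast markers, and Ccn1 and Ccn2, listed under older symbols, were not matched. Promoter windows are RefSeq's (GRCh38.p14).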

Additional observations from a re-analysis of the deposited data

How the results depend on the processing

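The input has 1 library per treatment and the gradient few counts, so only large differences in deep rows can be read. RLE size factors moved none of 57 named genes beyond its counting interval. TMM without CT010467.1, mitochondrial and Gm or Rik rows moved 1 (Fn1), and scaling by total counts moved 55. No named gene at least 2-fold apart changed sign under any scaling. Scaling by total counts moved the median of all rows to 0.95; the matrix and receptor medians became 0.64 and 0.87, still below it, no named gene crossed it, and 4 matrix and 7 receptor members were then 2-fold higher and 0 and 1 lower, where 45.5% of all rows were higher and 0.283% lower. Itga1, at 0.99, made 2 of 17 receptor members 2-fold higher after removal of CT010467.1, mitochondrial and Gm or Rik rows, where 2.53% of all rows were. It did likewise with a prior count of 0.5, where 3.03% of all rows were 2-fold higher. With a minimum of 20 counts 3 of 25 matrix members were higher and 3 lower. Of 18 receptor members 2 were higher and 2 lower. Of all such rows 3.82% were higher and 4.83% lower. With a minimum of 200, 0 of 10 matrix and 1 of 12 receptor members were lower, where 2.48% of all such rows were. In the gradient fits 0 members were called under RLE, DESeq2, no filter and all 4 fractions summed. Of all rows in the sum, RLE called 63 of 727, DESeq2 26 of 9255 and no filter 6 of 9255. With all 4 fractions 52 of 913 were called. In single fractions RLE called 11 of 241 rows in polysomes, 32 of 213 in 80S, 26 of 234 in 60S and 27 of 225 in 40S. At these shares 0 of so few members says little about them. Leaving out each replicate gave 0 to 1 members in the sum and 0 in single fractions, the 1 being ITGB1BP1. With the replicate number as a block 0 members were called in every fit, and all rows called were 4 with it and 9 without in polysomes, 15 and 27 in 80S, 9 and 23 in 60S, 0 and 18 in 40S, and 10 and 42 in the sum. Same-numbered libraries correlated at -0.05, 0.17 and 0.30, not all best with their own number, so they were not taken as pairs. No further call of a member changed.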
